A study of Mus musculus with 6 samples.

Results

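Long intergenic noncoding RNAs (lincRNAs) that were expressed in mouse RNA sequencing libraries labelled as lung were described across 6 libraries. A member is a row that the deposited gene table classes as lincRNA and whose mean over all 6 libraries reached 2 FPKM, a read density scaled to gene length and library depth. Some of the best known lncRNAs are left out by name, and 4 of these reached that level (Malat1, Neat1, Snhg12 and Pvt1). Of 54532 rows, 5559 were lincRNAs, 3240 of these were above 0 in a library, and 223 were members.

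By label, 3 libraries come from young mice (3 months) and 3 from aged mice (18 months), and no treatment, genotype, strain or sex is given. Whole reads could be recovered from the values and summed to between 16649061 and 17456715 per library. Since no label tells whether each library is a mouse of its own, p-values measure only the spread between libraries, which may be technical. Checked against cell type markers, the lung label was met in part only. Of 10 alveolar markers, 2 reached 1 FPKM in every library, the water channel gene Aqp5 at 55.2 to 93.6 FPKM and Hopx at 5.68 to 10.4 FPKM, while the surfactant protein gene Sftpc reached at most 0.112 FPKM. Of 8 leukocyte markers, 2 did so, Cd68 at 5.85 to 16.7 FPKM and Lyz2 at 3.84 to 18.8 FPKM, while Ptprc (CD45) reached at most 0.0953 FPKM. The 8 endothelial markers summed to at most 1.36 FPKM. The 10 fibroblast markers summed to 1691 to 1726 FPKM in the libraries labelled young and 1847 to 1954 FPKM in those labelled aged. The 8 markers of proliferating cells summed to 457 to 466 and 547 to 567 FPKM. Not every fibroblast marker followed its sum. Fn1 stood at 526 and 960 FPKM in the group means, but Col1a2 at 335.4 and 219.5, Col1a1 at 245.3 and 164.2, and Col3a1 at 62.3 and 19.2 FPKM. Pdgfra was lower too, and Thy1, Dcn and Lum reached at most 0.4663, 0.1085 and 0.04817 FPKM. Kidney tubule markers summed to 0.887 to 135 FPKM in the libraries labelled young and to 1.33 to 1.97 FPKM in those labelled aged, since young replicates 1 and 3 held kidney transcripts such as Kap, at 116 and 21.9 FPKM. The groups are therefore named by label only, and higher, lower, rose and fell are always for labelled aged against labelled young.

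LincRNAs are transcribed by RNA polymerase II from loci of their own between protein-coding genes, are capped and mostly spliced and polyadenylated, and carry no long open reading frame. Some act in trans, such as RNAs that bind many copies of a protein or a miRNA, others act on a gene beside them through their transcription or their promoter, and some serve mainly as precursors of small nucleolar RNAs (snoRNAs) or miRNAs released from their introns or exons. Most have no known role, and 204 of the 223 members carry only a clone or gene model name.

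Sequences are shown for members whose letters bear on what they are known for. Norad (2900097C17Rik, chr2:156388065-156392979, minus strand, 1 exon) is an abundant cytoplasmic RNA that binds Pumilio repressor proteins. Its GENCODE M21 transcript of 4915 bases held 11 copies of the Pumilio element TGTANATA, searched on the sense strand. The stretch from base 2422 to 2478 holds a closely spaced pair, in capitals. Cyrano (1700020I14Rik, Oip5os1 in RefSeq, chr2:119594297-119607502, plus strand) is known for an extensively paired site that directs the decay of miR-7. The site in its longest GENCODE M21 transcript is shown with the match to the seed (bases 2 to 8 of the miRNA) in capitals, above the mature miRNA from RefSeq with its seed in capitals.
Norad element pair: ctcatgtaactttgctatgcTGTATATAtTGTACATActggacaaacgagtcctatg
Cyrano miR-7 site: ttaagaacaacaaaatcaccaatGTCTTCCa
mmu-miR-7a-5p: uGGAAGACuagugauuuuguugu

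Promoters come from the RefSeq table (GRCm38.p6), which gives 300 bases from 250 before to 50 after an annotated start, and are printed along the strand of the lincRNA. Of the 223 members, 141 matched a RefSeq gene by name or synonym and 118 had a promoter. For Gm38399 the match was the protein-coding gene Nav1, whose promoter (observed over expected CpG ratio 1.139) counts in the shares of members below. The first group shows 3 members that were higher in the libraries labelled aged, C130083M11Rik (chr5:52216384-52216683, minus strand), Gm34719 (chr12:110086371-110086670, minus strand) and 3300005D01Rik (chr17:5798407-5798706, plus strand), with the AP-1 letters TGAGTCA, on either strand, in capitals.
C130083M11Rik: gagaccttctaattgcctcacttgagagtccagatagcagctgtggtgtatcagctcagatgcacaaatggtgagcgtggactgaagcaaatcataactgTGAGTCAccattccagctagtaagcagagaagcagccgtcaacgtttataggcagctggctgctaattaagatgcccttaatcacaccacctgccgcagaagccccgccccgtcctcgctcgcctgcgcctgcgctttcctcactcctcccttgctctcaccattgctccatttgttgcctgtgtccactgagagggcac
Gm34719: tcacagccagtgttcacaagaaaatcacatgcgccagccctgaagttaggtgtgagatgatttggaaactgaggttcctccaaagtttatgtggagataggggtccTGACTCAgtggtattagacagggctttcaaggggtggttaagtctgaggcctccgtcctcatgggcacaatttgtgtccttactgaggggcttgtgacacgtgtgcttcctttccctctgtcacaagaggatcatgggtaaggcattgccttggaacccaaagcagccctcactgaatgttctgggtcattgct
3300005D01Rik: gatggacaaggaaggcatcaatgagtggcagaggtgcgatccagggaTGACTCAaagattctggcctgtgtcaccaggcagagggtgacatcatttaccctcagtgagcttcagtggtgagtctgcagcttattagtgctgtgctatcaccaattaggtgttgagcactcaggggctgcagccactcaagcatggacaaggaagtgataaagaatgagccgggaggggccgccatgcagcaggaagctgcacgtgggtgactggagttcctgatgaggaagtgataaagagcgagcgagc

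The second group shows 2 members that start head to head with a protein-coding gene, Snhg18 with Sema5a (chr15:32244613-32244912, minus strand) and Gm7160 with Zcchc2 (chr1:105990233-105990532, minus strand). The capitals mark the bases between the annotated starts, 147 for Snhg18 and 123 for Gm7160, so that the coding gene begins in the lower case letters to their left and runs leftwards. Both windows are rich in CpG, with observed over expected ratios of 0.769 and 0.965, while those of the first group stood at 0.474, 0.162 and 0.297.
Snhg18: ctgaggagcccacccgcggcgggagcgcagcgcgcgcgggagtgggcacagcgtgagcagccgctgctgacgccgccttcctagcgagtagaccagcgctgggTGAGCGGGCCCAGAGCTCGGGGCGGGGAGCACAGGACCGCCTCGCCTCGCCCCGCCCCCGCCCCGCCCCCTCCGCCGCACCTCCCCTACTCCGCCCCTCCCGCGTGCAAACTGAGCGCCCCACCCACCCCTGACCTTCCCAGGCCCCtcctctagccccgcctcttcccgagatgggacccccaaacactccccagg
Gm7160: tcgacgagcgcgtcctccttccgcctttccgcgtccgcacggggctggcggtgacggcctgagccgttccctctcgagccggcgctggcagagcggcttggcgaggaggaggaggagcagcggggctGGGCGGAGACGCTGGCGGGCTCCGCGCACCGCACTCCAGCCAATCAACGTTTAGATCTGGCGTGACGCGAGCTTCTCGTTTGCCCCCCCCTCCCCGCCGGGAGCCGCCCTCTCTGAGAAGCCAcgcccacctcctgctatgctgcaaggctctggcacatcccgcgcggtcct

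Most members were expressed at a low level. The median of their means was 3.94 FPKM, 135 lay between 2 and 5 FPKM, 44 between 5 and 10, and 44 at 10 or more, of which 17 reached 20. All 223 members had at least 1 read in each of the 6 libraries. The reads on members summed to 381306 over the 6 libraries, 0.372% of all, and 10 members took 51.8% of them. The median member had 580 reads in the 6 libraries and the thinnest, Gm45027, had 17. Replicates lay close together, with a median coefficient of variation of 11.99% among the young replicates and 10.6% among the aged. A 2-fold range within a group was found for 18 members among the libraries labelled young, 10 of them highest in young replicate 1, and for 13 among those labelled aged.

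The most abundant member was Gm47015 (chr10:79412962-79417905, minus strand, 2 exons), with 197, 199 and 194 FPKM in the libraries labelled young and 166, 165 and 157 FPKM in those labelled aged. Its groups did not overlap, and it was lower by a small margin (log2 fold change -0.27 ± 0.03 SE on the log2(FPKM + 1) scale, limma adjusted p = 0.00055). Over all 15197 genes tested, 60.0% passed the limma threshold of an adjusted p under 0.05. Among the 10 most abundant members, Norad was the other one that fell. Of the 10, 6 rose: 4930461G14Rik, Gm42047, Gm47223, Gm28187, Gm29630 and Gm13056.

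Gm42047 (chr8:121833247-121841178, plus strand, 4 exons, within the span of the untested row Gm20388) held the most reads of any member, 15.3% of all reads on members. It stood at 76.1, 73.1 and 74.1 FPKM in the libraries labelled young and at 128, 127 and 125 FPKM in those labelled aged, with no overlap (log2 fold change 0.76 ± 0.03 SE, limma adjusted p = 6.13e-06). Gm29630 had 34.5, 33.2 and 29.0 FPKM against 60.8, 78.0 and 71.3 FPKM, 2.17-fold higher (limma adjusted p = 0.000137). Gm13056 rose from 29.3 ± 2.56 to 45.3 ± 7.07 FPKM (SD; n = 3 per group throughout); without both young replicates that held kidney transcripts its log2 change went from 0.61 to 0.47 and its adjusted p was 0.0856. That fit leaves 1 young library, which is assumed to vary like the aged ones, so it loses calls through the smaller group too (6321 called genes against 9115), and this holds wherever it is given below.

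The remaining pair of the 10 did not pass the test. Gm47604 lay at 51.3 ± 7.46 and 49.2 ± 1.57 FPKM, less apart than the replicates. Gm10076 is a single exon of 384 bases, 383 of which align to the mRNA of ribosomal protein gene Rpl41 at 99.5% identity, so its reads cannot be kept apart from those of a transcript at 863 FPKM or more in group means. It had 76.5, 26.2 and 33.2 FPKM in the libraries labelled young and 23.3, 54.1 and 29.5 FPKM in those labelled aged, the widest spread among the 10. Its log2 fold change of -0.27 became 0.17 without young replicate 1. In all, 27 members matched a coding transcript of another locus at 95% identity or more over at least 100 bases, 5 of them over at least 50% of their length (Gm10076, Gm28901, Gm32857, Gm47467 and Gm6712).

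**Figure D1:**
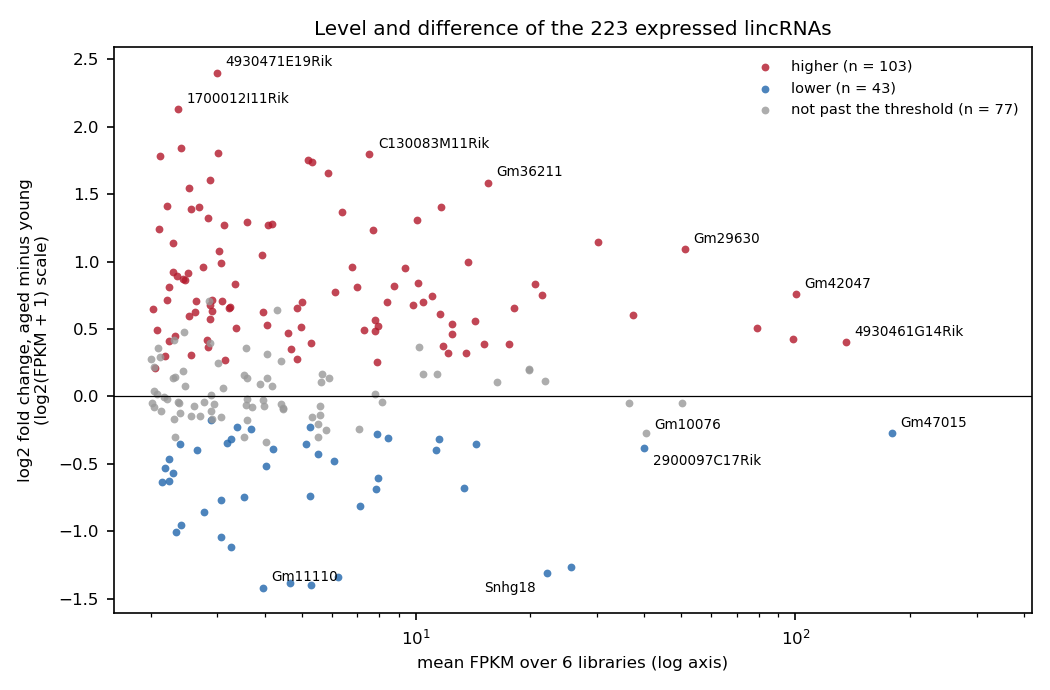
Mean FPKM of each of the 223 lincRNAs over the 6 libraries (log axis) against its log2 fold change, aged minus young, on the log2(FPKM + 1) scale. Points are coloured by limma's call at an adjusted p under 0.05, with 103 higher (red), 43 lower (blue) and 77 not past the threshold (grey), and the largest differences are found among low members.

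More members were higher than lower in the libraries labelled aged. By limma on log2(FPKM + 1), fitted and adjusted over all 15197 tested genes, 103 members were higher and 43 lower, and 77 did not pass an adjusted p of 0.05. Over all tested genes 60.0% were called, 27.7% higher and 32.3% lower, so the share of members called (65.5%) was near that background and the direction was not: 46.2% of members were higher and 19.3% lower. The median log2 fold change was 0.27 over the members and -0.03 over all tested genes. Groups did not overlap for 147 members (65.9%), against 66.9% of all tested genes. A change of at least 2-fold on this scale was found in 30 members upwards and 9 downwards.

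The choice of members bears on these counts, which are a description. Of the members, 47 reached 2 FPKM only through the libraries labelled aged and 15 only through those labelled young, and the means of such rows had to differ. Among the 161 members at or above 2 FPKM in both groups, 64 were higher and 31 lower, while 66 did not pass, with a median log2 fold change of 0.14. Other classes with a mean of at least 2 FPKM, chosen by the same level, had 29.98% higher and 39.7% lower (9840 protein-coding genes), 35.6% and 23.5% (132 antisense transcripts), 42.5% and 24.1% (87 processed transcripts) and 17.2% and 30.1% (482 processed pseudogenes). More higher than lower calls were thus counted in antisense and processed transcripts too. Differences between classes were not tested.

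Lower calls outnumbered higher ones among single-exon members, a difference from the other members that was not tested. Of 23 members with 1 exon, 4 were higher and 10 lower, with a median log2 fold change of -0.15 (60.9% called, against 60.0% of all tested genes), while of 200 members with 2 or more exons 99 were higher and 33 lower, with a median of 0.32. Norad and Gm7292, a single-exon row that carries 9 Pumilio elements in 2527 bases, are among those that fell. Higher calls outnumbered lower ones at each level, with 57 and 23 of 135 members at 2 to 5 FPKM, 20 and 12 of 44 at 5 to 10 FPKM, and 26 and 8 of 44 at 10 FPKM or more. Leaving out the 27 members with a copy in a coding transcript gave 92 higher and 38 lower.

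**Figure D2:**
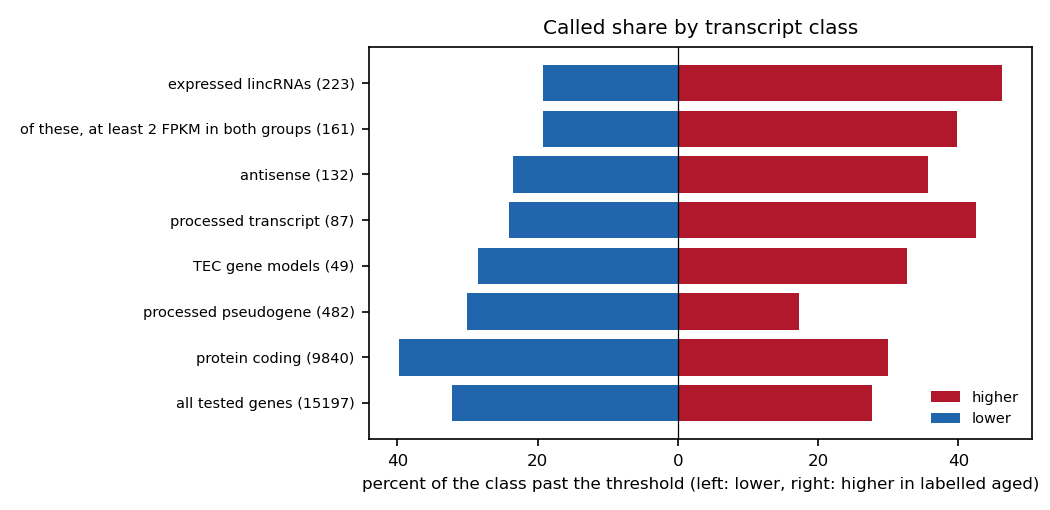
Percent of each transcript class called lower (left, blue) and higher (right, red) by limma in the libraries labelled aged, with the number of genes in brackets. All classes have a mean of at least 2 FPKM except the bottom row, which holds all 15197 tested genes, and the lincRNAs have 46.2% higher and 19.3% lower.

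The reads per library are given as a description, since the members were chosen by their level in these libraries. Members took 0.344%, 0.343% and 0.334% of the recovered reads in young replicates 1 to 3 and 0.406%, 0.410% and 0.398% in aged replicates 1 to 3, a mean of 0.340% ± 0.00550 against 0.405% ± 0.00634. Without Gm42047 the means were 0.298% and 0.332%. All lincRNA rows, which no level selects, took 0.710% to 0.722% and 0.764% to 0.794%, a ratio of 1.09 against 1.19 for the members (exact permutation p = 0.1, two-sided, the smallest that 3 against 3 allows). The total over all lincRNA rows also counts those left out by name. Among them Neat1 fell, at 54.41 and 19.39 FPKM in the group means. Snhg12, at 10.6 and 12.58 FPKM, and Pvt1, at 4.13 and 7.003 FPKM, rose. Malat1 did not pass the test. The part of the rows left out by name in the gap between 1.09 and 1.19 was not tested. Of the 5559 lincRNA rows, 1678, 1700 and 1692 had at least 1 read in the libraries labelled young and 2226, 2273 and 2262 in those labelled aged, 1.33-fold more (exact permutation p = 0.1). Protein-coding rows with a read numbered 15653 to 15993 and 17057 to 17110, 1.08-fold more, while total reads were slightly lower in the libraries labelled aged. In bulk samples such as these, fewer cells of a type and less RNA per cell cannot be told apart.

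**Figure D3:**
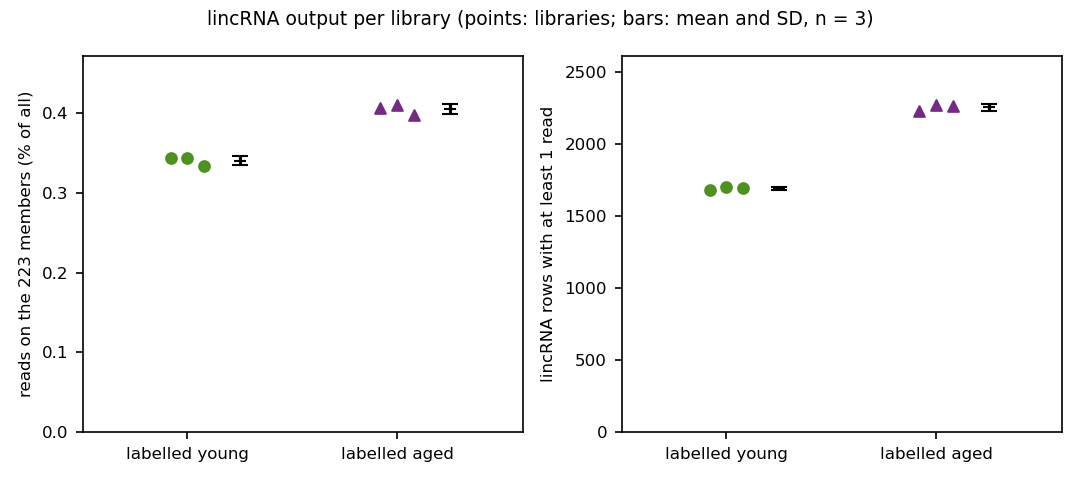
Percent of recovered reads on the 223 lincRNAs (left) and number of lincRNA rows with at least 1 read (right) in each library, with the mean and SD beside the points (n = 3 per group). Both axes start at 0, and all 3 libraries labelled aged lie above all 3 labelled young in both panels.

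The largest rises were of RNAs with few reads in the libraries labelled young. 4930471E19Rik (chr10:120632672-120699203, minus strand, 3 exons) had 0.242, 0.120 and 0.452 FPKM in the libraries labelled young and 6.47, 5.09 and 5.54 FPKM in those labelled aged. These rest on 27 and 563 reads, and the ratio of means was 21.02 (log2 fold change 2.40 ± 0.12 SE on the log2(FPKM + 1) scale, limma adjusted p = 1.34e-05). A member below 2 FPKM in the mean of 1 group passed the limit only through the other, so its means had to differ. The p-values of such members, here and below, are a description only. 1700012I11Rik (chr15:67226769-67377094, plus strand, 9 exons) rose from 0.242 ± 0.117 to 4.48 ± 0.972 FPKM, on 13 and 239 reads.

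Gm30691 on chromosome 15, Gm11419 on chromosome 11 and 1600019K03Rik on chromosome 16 also stood below 1 FPKM in their mean in the libraries labelled young, at 0.486, 0.395 and 0.807 FPKM, and at 4.32, 3.85 and 5.23 FPKM in those labelled aged. Each of these 3 rests on 20 or fewer reads over the libraries labelled young. Gm47648 (0.894 to 4.83 FPKM) and Gm42745 (0.800 to 4.24 FPKM) complete the rises from below 1 FPKM, and Gm42745 rests on only 8 and 42 reads. Groups did not overlap for any of the 12 largest rises, which the rule for naming them required.

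Better measured rises began from levels that the libraries labelled young already held. C130083M11Rik (chr5:52199984-52216434, minus strand, 8 exons), whose promoter is printed above, had 2.66, 2.81 and 2.99 FPKM against 11.98, 12.84 and 11.99 FPKM, 4.35-fold higher, on 303 and 1305 reads (log2 fold change 1.80 ± 0.05 SE, limma adjusted p = 2.67e-06). Gm36211 (chr3:107820221-107833539, minus strand, 4 exons) had 8.15, 7.39 and 6.19 FPKM against 24.98, 23.87 and 22.16 FPKM, 3.27-fold higher. Gm49249, Gm38534 and Gm34719 rose from 1.84, 1.91 and 2.32 FPKM to 8.58, 8.73 and 9.44 FPKM. In each of these 5 the libraries of a group lay within a narrow range beside the gap between groups. Of them, Gm49249 and Gm38534 reached 2 FPKM only through the libraries labelled aged.

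The falls were fewer and smaller in ratio. Gm11110 (chr17:57091370-57105942, minus strand, 6 exons) had 6.12, 6.58 and 5.91 FPKM in the libraries labelled young and 1.54, 1.92 and 1.63 FPKM in those labelled aged, 3.65-fold lower (log2 fold change -1.42 ± 0.07 SE, limma adjusted p = 1.35e-05). It overlaps the opposite strand of Tnfsf9, a TNF family ligand, which did not pass the test. Gm38403 fell from 7.19 ± 0.517 to 2.14 ± 0.122 FPKM and Gm31342 from 8.12 ± 1.67 to 2.46 ± 0.656 FPKM.

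Members on either side of St3gal1 moved in opposite directions. Gm31342 (chr15:67040058-67040824, plus strand) lies beyond the end of St3gal1, a sialyltransferase gene (chr15:67102875-67176830, minus strand), at 62051 bp, and fell. 1700012I11Rik lies 49939 bp before its start and rose. St3gal1 itself had 6.86, 6.40 and 6.03 FPKM against 9.71, 10.3 and 8.55 FPKM and was higher (limma adjusted p = 0.0012). These 3 were set side by side after their values were seen.

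Gm26917 (chr17:39843013-39846341, plus strand) had 35.1, 38.1 and 36.8 FPKM in the libraries labelled young and 14.6, 13.9 and 15.6 FPKM in those labelled aged (2.49-fold lower, limma adjusted p = 6.49e-06). The row ends at the edge of an annotated ribosomal RNA row, CT010467.1 (chr17:39846353-39848827), and whether its reads come from ribosomal RNA precursors was not tested. CT010467.1 lay at 51.8 to 79.6 FPKM in the libraries labelled young and 70.9 to 81.6 FPKM in those labelled aged, with overlap, and the lincRNA rows Gm42418 and AY036118 within it were listed at 0. The other large falls were Gm49124, 1300002E11Rik, Gm26724, Gm7967, Gm26797, 3110039M20Rik and Gm35394, with means of 3.45 to 9.35 FPKM in the libraries labelled young and 1.20 to 4.89 FPKM in those labelled aged. None of the 12 largest falls had groups that overlapped, again by the rule.

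**Figure D4:**
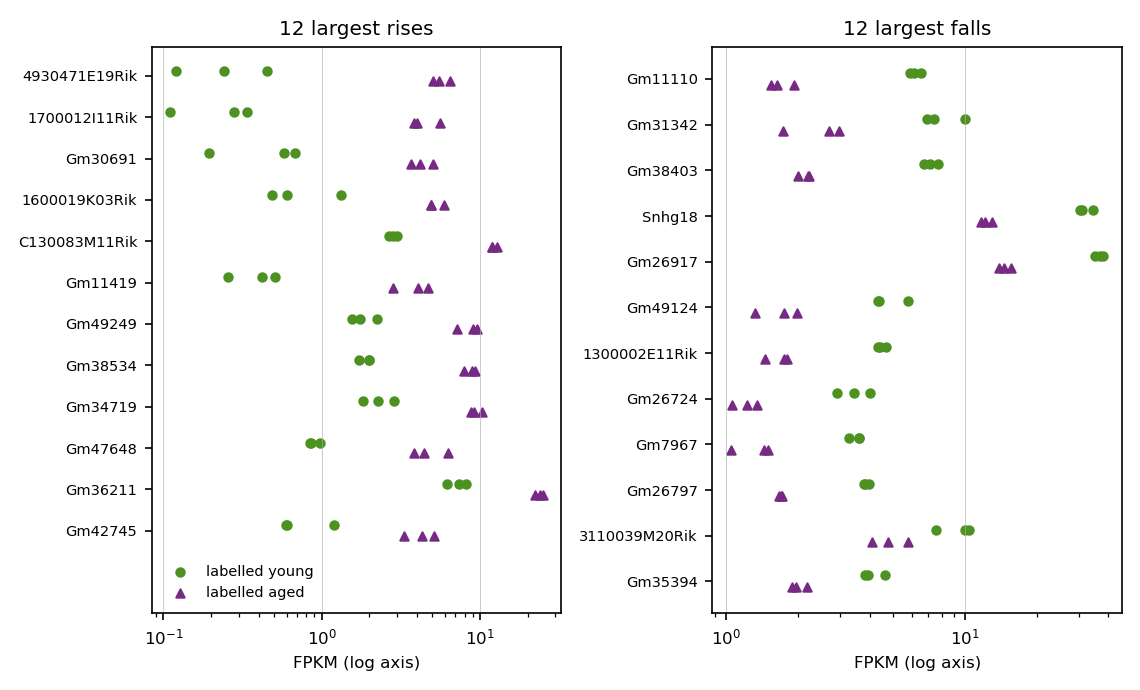
FPKM (log axis) in each library for the 12 lincRNAs with the largest rise (left) and the 12 with the largest fall (right) by log2 fold change among those past the threshold with no overlap. Circles are libraries labelled young and triangles libraries labelled aged, and the 2 groups are separate in every row. The rule sets where changes can start, since a fall with a mean of 2 FPKM must start above it.

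Among members with a described role, Norad and Cyrano, whose sequences are shown above, both fell. Norad had 45.5, 45.4 and 45.0 FPKM in the libraries labelled young and 33.4, 33.9 and 36.5 FPKM in those labelled aged, 1.31-fold lower (log2 fold change -0.38 ± 0.04 SE, limma adjusted p = 0.000223). Cyrano, named here after its values were seen, had 16.5, 16.5 and 15.7 FPKM against 12.6, 12.3 and 12.6 FPKM (log2 change -0.35 ± 0.04 SE, limma adjusted p = 0.000206). In both the groups are separate. Pum2, a Pumilio protein that Norad binds, was lower as well, from 29.2 ± 1.06 to 24.4 ± 0.484 FPKM (limma adjusted p = 0.00118).

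snoRNA host RNAs are spliced RNAs whose introns release snoRNAs, which guide the chemical modification of ribosomal RNA. Snhg18 (chr15:32240565-32244662, minus strand) had 30.3, 31.0 and 34.6 FPKM in the libraries labelled young and 11.702, 12.102 and 13.001 FPKM in those labelled aged, 2.61-fold lower (log2 fold change -1.31 ± 0.06 SE, limma adjusted p = 1.02e-05). Its intronic Snord123 row stood at 7.598 and 2.469 FPKM in the group means. Hosts and hosted rows did not always move together. Snord87 within Snhg6, a host that fell, stood at 1.773 and 2.467 FPKM. Links between hosts and these rows were not tested. Snhg10 rose from 1.97 ± 0.297 to 3.76 ± 0.397 FPKM (limma adjusted p = 0.000986). Snhg6 fell from 9.46 ± 1.11 to 7.41 ± 0.503 FPKM (limma adjusted p = 0.0167), a call lost without aged replicate 3 (adjusted p = 0.0528) and without both young libraries with kidney transcripts (adjusted p = 0.0729), with log2 changes of -0.28 and -0.26 against -0.31.

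Snhg20 (5.58 and 6.25 FPKM in the group means) and Epb41l4aos (18.4 and 21.2 FPKM) did not pass the test. These 5 are the members in a list of 21 snoRNA hosts. Of its 17 tested genes, 6 were higher and 5 lower, near the share over all tested genes (27.7% higher and 32.3% lower). Of the 8 core proteins of snoRNA particles 4 were higher and 2 lower, counts that went to 1 to 4 and 0 to 2 when a library was left out (1 higher without young replicate 2, aged replicate 1 or aged replicate 2). Among them was Nhp2 of the H/ACA particles, from 34.2 ± 2.33 to 79.1 ± 7.11 FPKM.

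In all, 9 members hold a miRNA hairpin on their own strand, of which 4 were higher (Gm3764, Snhg10, Gm27028 and 2900076A07Rik) and 0 lower. AL805899.1 (chr4:88909855-88938521, minus strand), which contains Mir31, had 15.7 ± 0.328 and 16.97 ± 1.65 FPKM and did not pass the test. Mir142hg, the host of the blood cell miRNA miR-142, had 6.04, 11.6 and 9.05 FPKM against 13.6, 11.4 and 9.52 FPKM, with overlap (limma adjusted p = 0.189). Without both young libraries with kidney transcripts its log2 fold change turned from 0.37 to -0.02, and without young replicate 2 it passed the test (adjusted p = 0.0496). Gm3764, which holds Mir9-1, rose from 4.29 ± 0.141 to 5.43 ± 0.311 FPKM (limma adjusted p = 0.00399). Beside the 27.7% of all tested genes that were higher and the 32.3% lower, the small lists below are counts only. Of the miRNA host list 6 genes were tested, 1 higher and 1 lower. The list of widely studied lincRNAs had 10 tested, 5 higher and 2 lower, that of the X chromosome 3 tested, 0 higher and 2 lower, and that of p53 targets 5 tested, 4 higher and 1 lower, with no member in either of the latter. The mature miRNAs were not measured here, and those of AL805899.1 and Gm3764 are, with seeds in capitals and not shared:
mmu-miR-31-5p: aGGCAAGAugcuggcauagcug
mmu-miR-9-5p: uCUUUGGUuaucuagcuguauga

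Other described members lie near genes of cell death, inflammation and the cell cycle. Lockd (chr6:134929092-134956798, plus strand) is transcribed downstream of Cdkn1b, the gene of cyclin-dependent kinase inhibitor p27. Lockd had 3.34, 4.09 and 3.67 FPKM in the libraries labelled young and 5.69, 5.25 and 5.63 FPKM in those labelled aged (log2 fold change 0.47 ± 0.07 SE, limma adjusted p = 0.00116). Cdkn1b went the opposite way, with 26.5, 27.0 and 26.4 FPKM against 12.5, 12.6 and 13.1 FPKM (log2 change -1.01 ± 0.03 SE, limma adjusted p = 3.01e-06). Bvht (Braveheart), a lincRNA of cardiac commitment, stood at 7.78 ± 1.43 and 6.36 ± 0.378 FPKM and did not pass the test, but passed without young replicate 3 (adjusted p = 0.00297) and without both young libraries with kidney transcripts (adjusted p = 0.0228).

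Morrbid (Gm14005, chr2:128178319-128502765, minus strand) is known for restraining its neighbour Bcl2l11, which encodes the death-promoting protein BIM, in myeloid cells. Morrbid rose from 3.14 ± 0.397 to 4.99 ± 0.599 FPKM (limma adjusted p = 0.0033; 0.0756 without both young libraries with kidney transcripts) and Bcl2l11 from 5.52 ± 0.249 to 7.15 ± 0.342 FPKM (limma adjusted p = 0.00185). LincRNA-Cox2 (Ptgs2os2, chr1:150159043-150164948, minus strand) lies 50816 bp from Ptgs2, the gene of cyclooxygenase 2. It had 1.90, 1.22 and 1.63 FPKM against 5.232, 5.001 and 3.235 FPKM (limma adjusted p = 0.00154), and Ptgs2 had 2.60, 2.34 and 2.24 FPKM against 8.18, 8.06 and 6.05 FPKM. Both RNAs of each pair were therefore higher, and both lincRNAs were named after their values were seen. The 8 leukocyte markers summed to 10.4 to 12.7 FPKM in the libraries labelled young and 35.4 to 36.0 FPKM in those labelled aged. Most of this came from Cd68 (6.98 and 16.1 FPKM in the group means) and Lyz2 (4.10 and 18.2 FPKM). The others, such as Ptprc at 0.0953 FPKM or less, stayed below 1 FPKM in every library. The part of leukocytes in these results was not tested.

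The nearest protein-coding gene of each member was found by start and end in the deposited table. Of the 223 members, 29 overlap the span of such a gene and 194 lie apart from it, at a median of 19360 bp, 72 of them within 10 kb. In 171 pairs both rows were tested, and in 74 both passed the threshold, 45 of them (60.8%) in the same direction. The same share over other tested genes and their nearest protein-coding genes was 58.4% of 4423 pairs. Where the member lay within 10 kb or overlapped, 26 of 35 pairs (74.3%) went the same way, against 59.0% of 3448 pairs of other genes. Without the overlapping pairs 18 of 27 did (66.7%, against 57.2% of 2241). Over 10 to 100 kb 14 of 32 did (43.8%, against 56.0%). The differences between these shares were not tested. Over 100 kb, 5 of 7 pairs (71.4%) went the same way, so the share did not fall steadily with distance. Without both young libraries with kidney transcripts, 43 pairs passed, 24 in the same direction.

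All 8 overlapping pairs in which both passed went the same way, 7 of them on opposite strands, against 62.5% of 1207 overlapping pairs of other genes. Overlap here is of gene spans, which need not share exons. Whether reads were counted by strand is not stated, so reads on any bases that both rows share cannot be told apart. Gm26724 fell from 3.45 ± 0.558 to 1.20 ± 0.142 FPKM and Lemd2, a nuclear envelope protein gene on the other strand, from 21.8 ± 2.44 to 13.8 ± 0.748 FPKM. Gm26637 and Sult6b1, a sulfotransferase gene, rose from 1.47 ± 0.356 and 1.21 ± 0.270 FPKM to 3.46 ± 0.242 and 2.90 ± 0.228 FPKM. Gm26637 also overlaps Eif2ak2, with 175 bases of its transcript matching that gene's opposite strand at 100% identity. Eif2ak2 stood at 76.09 and 67.28 FPKM in the group means, and Sult6b1 was paired by the longest overlap. Gdap10, which overlaps the same strand of Nampt, the gene of the rate-limiting enzyme of NAD salvage, fell from 2.93 ± 0.154 to 1.55 ± 0.254 FPKM while Nampt fell from 56.1 ± 3.67 to 31.0 ± 0.303 FPKM.

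Members that start head to head with a coding gene within 1 kb begin close to it on the opposite strand. There were 21 such members, and in 6 of them both rows passed, 4 in the same direction (66.7%, against 61.5% of 416 such pairs of other genes). Gm7160 fell from 7.27 ± 0.504 to 4.93 ± 0.204 FPKM beside Zcchc2, a zinc finger gene, which had 42.8, 41.7 and 39.7 FPKM against 25.1, 22.7 and 26.6 FPKM. 1700086P04Rik rose from 1.36 ± 0.336 to 3.12 ± 0.483 FPKM beside Rnf19b, a ubiquitin ligase gene, which rose from 29.2 ± 0.729 to 43.9 ± 4.07 FPKM. On chromosome 12, Snhg10 starts 409 bp from Glrx5, a mitochondrial glutaredoxin gene, with Gm47648 beyond it on the same side, and all 3 were higher, Glrx5 from 10.4 ± 0.744 to 15.4 ± 1.01 FPKM. Gm17501 and Cyr61, a matricellular protein gene, were both higher too, Gm17501 from 2.34 ± 0.289 to 3.31 ± 0.384 FPKM, a call lost without both young libraries with kidney transcripts (adjusted p = 0.215).

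In the remaining 2 divergent pairs the rows went apart. Snhg18 fell while Sema5a, a semaphorin gene that begins 148 bp away, had 4.81, 5.06 and 5.20 FPKM in the libraries labelled young and 6.09, 6.42 and 6.36 FPKM in those labelled aged (log2 fold change 0.28 ± 0.05 SE, limma adjusted p = 0.00218). 5031425E22Rik had 9.736, 10.14 and 10.04 FPKM against 14.4, 15.6 and 14.8 FPKM, while Kmt2e, a chromatin regulator gene 172 bp away, had 29.6, 29.5 and 28.6 FPKM against 16.8, 16.4 and 17.5 FPKM. All 4 rows had groups that did not overlap, so rows with starts this close differed in direction beyond the spread of the replicates.

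Of the 10 members nearest to a coding gene without overlap, 4 passed the test, among them Snhg18 and Gm7160, against 60.0% of all tested genes. 1110019D14Rik, 8 bp from 2610001J05Rik, rose from 1.81 ± 0.361 to 3.22 ± 0.00573 FPKM, and Gm12319, 97 bp from the profilin gene Pfn1, fell from 6.49 ± 1.08 to 4.58 ± 0.874 FPKM, a call lost in 12 of 18 alternative fits, among them those without young replicate 1 or 3 or aged replicate 2 or 3. BC030343, C030037D09Rik, Gm16001, 2010320M18Rik, Gm26910 and Gm30108 did not pass, while their neighbours Zfp316, Msi2, Ogfod2, Pik3r2, Seh1l and Camk2g did, Msi2 and Ogfod2 higher and the other 4 lower. Differences between the lincRNAs and these neighbours were not tested.

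Further pairs rose together without overlap or divergent starts. Gm26651 had 0.849, 0.867 and 0.548 FPKM in the libraries labelled young and 3.202, 3.779 and 4.004 FPKM in those labelled aged, and Gadd45g, a stress-induced growth arrest gene 124746 bp away, had 29.9, 35.0 and 27.0 FPKM against 106, 107 and 107 FPKM. Gm42476 rose from 1.36 ± 0.557 to 3.34 ± 0.627 FPKM 2642 bp from Pdgfc, a platelet-derived growth factor gene, which rose from 0.717 ± 0.137 to 2.48 ± 0.258 FPKM. Both were chosen after their values were seen. Gm38079, a single exon of 154 bases 232 bp from Tlr5, the flagellin receptor gene, was lower together with it, but its own groups overlapped, at 5.64 to 12.1 and 1.13 to 5.74 FPKM. Its call (limma adjusted p = 0.0336) was lost in 6 of 18 alternative fits, among them those without young replicate 1, young replicate 2, aged replicate 1 or aged replicate 3 (adjusted p up to 0.119 over all fits).

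**Figure D5:**
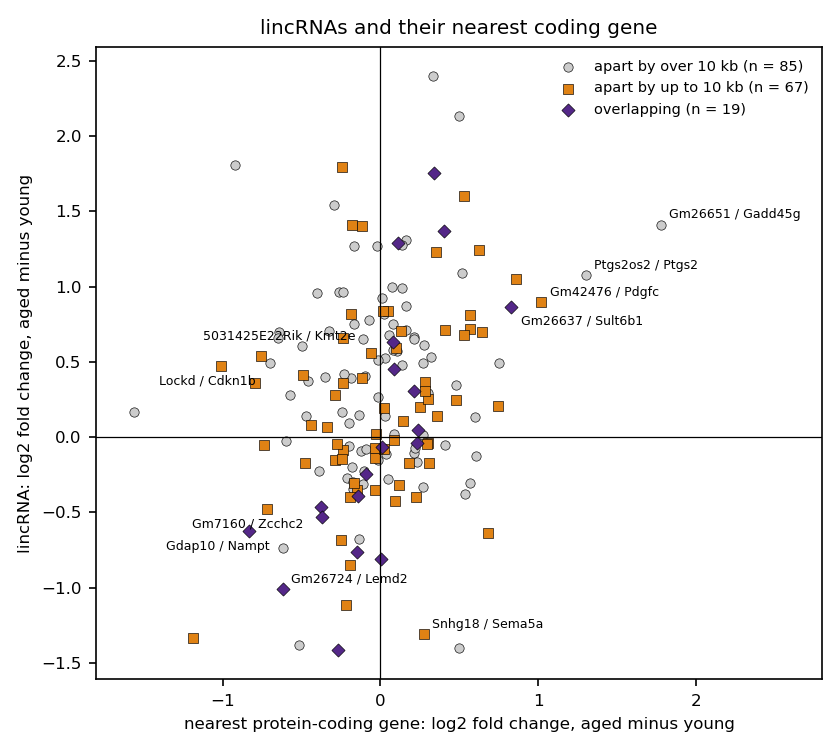
Log2 fold change (aged minus young, log2(FPKM + 1) scale) of each lincRNA against that of its nearest protein-coding gene for the 171 pairs in which both were tested. Diamonds overlap the gene (n = 19), squares lie up to 10 kb from it (n = 67) and circles farther (n = 85), and diamonds lie mostly in the quadrants of equal sign, while Snhg18 and Lockd lie in those of opposite sign.

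The promoters of members held fewer CpG-rich windows than those of changed genes at large. An observed over expected CpG ratio of at least 0.6 was found for 32.2% of the 118 members with a promoter, for 38.4% of all 27025 genes in the table, and for 69.8% and 77.0% of tested genes that were higher or lower. Among members that were higher it was 26.2% of 61, and among those lower 36.8% of 19. The AP-1 letters TGAGTCA (either strand, in any listed promoter of a gene) were found for 10 of the 61 higher members (16.4%), 0 of the 19 lower and 4 of the 38 not past the threshold (10.5%). Over all genes in the table the share was 5.95%, and over tested genes 6.58% of those higher and 4.65% of those lower. Matches describe these windows only, and differences between the shares were not tested.

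The 10 higher members with AP-1 letters were Gm14005 (Morrbid), C130083M11Rik, 1810058I24Rik, Gm44507, Gm31718, 4930471E19Rik, Gm39473, Gm34719, Gm32857 and 3300005D01Rik. Of these, 3300005D01Rik had 15.8, 16.4 and 14.8 FPKM in the libraries labelled young and 29.5, 27.1 and 25.005 FPKM in those labelled aged, and Gm44507 had 21.2, 18.1 and 16.2 FPKM against 42.2, 42.6 and 41.1 FPKM. The matches printed above lie 150, 144 and 203 bases before the start of C130083M11Rik, Gm34719 and 3300005D01Rik. The other letters searched on both strands were TGACGTCA for the cAMP response element and ACGTG for the core of the hypoxia response element. The TATA box was searched as TATAAA. The E-box, which contains the hypoxia core, was searched as CACGTG. The CCAAT box was searched as its name spells it, and the interferon response element, the NRF1 core and the full p53 element were searched as well. The shares among members and all genes of the table were 5.08% and 2.03% for the cAMP element, 28.8% and 21.8% for the hypoxia core, 6.78% and 3.99% for the interferon element, 48.3% and 41.1% for the CCAAT box, 14.4% and 15.7% for the TATA box, and 9.32% and 8.09% for the E-box. No member held the p53 or NRF1 letters, which 0.0111% and 1.07% of all genes held.

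Proteins that process or destroy such RNAs did not move one way. Of the nuclear exosome and its adaptors 22 were tested, with 6 higher and 9 lower. Tent4a, a poly(A) polymerase that marks RNAs for the exosome, fell from 13.5 ± 0.494 to 6.54 ± 0.231 FPKM, and Exosc1, a subunit of the exosome cap, rose from 10.7 ± 0.828 to 17.6 ± 1.18 FPKM. Of 17 nonsense-mediated decay factors 4 were higher and 7 lower, with 1 higher without young replicate 1 or aged replicate 1. Of 14 Integrator subunits 3 were higher and 5 lower, and of 13 miRNA processing and effector proteins 2 and 7. Xpo5, which exports miRNA precursors, was among the 2 that rose (16.02 ± 0.621 to 23.4 ± 0.0161 FPKM). Over all the protein lists, 51 of 76 tested members were called, against 60.0% of all tested genes, and without both young libraries with kidney transcripts 28 were.

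The members nearest to the limit of 2 FPKM show what the rule leaves out. Just inside were Gm30108, Gm26910 and 2310001H17Rik, with means of 2.01, 2.01 and 2.03 FPKM. Just outside were C230035I16Rik at 1.98, 1700086O06Rik at 1.99 and Trp53cor1 at 1.9998 FPKM. Trp53cor1, the p53-induced lincRNA-p21, had 0.778, 0.772 and 0.838 FPKM in the libraries labelled young and 3.30, 2.99 and 3.32 FPKM in those labelled aged. The 401 tested lincRNA rows that were not members had 149 higher and 33 lower, with 45.4% called. Over all tested genes 60.0% were called, 27.7% higher and 32.3% lower. The filter for testing asks for a level in only 3 or more libraries. A low row can therefore enter through the libraries labelled aged alone, so these counts are a description only.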

How the data were processed

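RNA from 6 mouse samples labelled lung, 3 per age label, was sequenced. Per the labels' protocols, RNA was extracted with TRIzol and read pairs from a NovaSeq instrument were aligned with HISAT2 2.0.5. Per the submitters' processing notes the build is mm10. No label names the counting program, its annotation or its use of strand. The authors deposited FPKM values for 54532 genes with position, length and class. Every value was a whole number of reads (100% within a tolerance of 0.01), so reads were recovered, and 3 reads on a gene of 1 kb are worth 0.173 to 0.177 FPKM. limma voom on these reads with TMM scaling, an alternative, called 9512 of 15197 genes.

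Members and gene lists were chosen with earlier results of these data known. Genes with at least 0.5 FPKM in 3 or more libraries were tested on log2(FPKM + 1), a scale that understates the change of low genes, with limma 3.58.1 in R 4.3.3 (group model, mean-variance trend, 2-sided p, Benjamini-Hochberg adjustment over all tested genes, threshold 0.05). Folds are ratios of mean FPKM. Named members were the 10 most abundant, the 12 largest rises and falls past the threshold with no overlap between groups, members of lncRNA lists, those next to the 2 FPKM limit, and the 10 nearest to a coding gene without overlap. Other members were picked with their values known. Members, spans and transcripts were matched to GENCODE M21 (220 of 223 with the same span), and copies were sought with blastn 2.17.0. Scripts were tested on simulated reads. Alternatives changed the pseudocount, filter, scaling, moderation, threshold, member limit or libraries. Python 3.11.15, pandas 2.3.3, scipy 1.17.1 and matplotlib 3.10.9 were used. 1 gene of the protein lists is not reported here.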

Additional observations from a re-analysis of the deposited data

How the results depend on the processing

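The direction of the members' excess held under all 18 alternative fits. With more than 1 young library, 96 to 110 members were higher and 33 to 44 lower. Higher ones made up 70.1% to 75.9% of called members and 43.7% to 55.3% of all called genes. The balance over all tested genes thus turned with scaling, from 4212 higher and 4903 lower in the main fit to 4988 and 4026 after median centring. Without both young libraries with kidney transcripts the members' median log2 fold change was 0.254. The median log2 fold change was 0.331 with a pseudocount of 0.1, 0.306 with 0.5, 0.335 after median centring, 0.306 after quantile normalization, 0.344 after rescaling to TPM, 0.375 with voom, and 0.238 to 0.272 when a library was left out in turn. Member limits changed counts by construction: with a mean of at least 1 FPKM 168 were higher, with at least 5 FPKM 46 higher and 20 lower (median 0.3455), and with at least 2 FPKM in each group 64 higher (median 0.138). Pairs going the same way as the nearest coding gene numbered 27 at an adjusted p under 0.01, 76, 15 and 23 under those limits, 26 within 10 kb, 33 to 41 without 1 library, and 24 without both young libraries with kidney transcripts, where 28 proteins of the lists were called. Of the pairs in which both passed, 45 of 74 (60.8%) went the same way in the main fit. Without aged replicate 1, 2 or 3 it was 33 of 61, 33 of 59 and 39 of 69. These shares lay below the 58.4% of other genes in the main fit. Without young replicate 1, 2 or 3 it was 41 of 69, 38 of 64 and 41 of 67, and with voom 53 of 82, all above it. The small lead of the members over other genes was therefore not stable. Same-numbered libraries showed no shared deviation (correlations 0.00562, -0.00793 and 0.0192). With 3 libraries per group this check cannot decide whether the numbers pair them. The replicate block gave 103 higher and 40 lower members and 8441 called genes. The difference in the percent of reads on members was 0.0335 percentage points without Gm42047, and that in lincRNA rows with at least 5 reads was 233.

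Of the named members, the sign of the log2 change turned only for members that had not passed the test. These were 2010320M18Rik (-0.0611 to 0.172 without 1 library), BC030343 (0.0113 after median centring, 0.0134 after quantile normalization, -0.140 to 0.0355 without 1 library), C030037D09Rik (0.0245 after median centring, 0.0122 without both kidney libraries, -0.135 to 0.0800 without 1 library), Gm10076 (0.339 without both, -0.611 to 0.175 without 1 library), Gm26910 (0.0167 after median centring, -0.166 to 0.0976 without 1), Gm47604 (0.0173 after median centring, -0.149 to 0.0564 without 1) and Mir142hg (-0.0188 without both). Gm30108 passed in 3 alternatives. The cause was not tested. Depth limits low members such as Gm42745, which had 8 reads in the libraries labelled young. Leaving out both libraries with kidney transcripts, which leaves 1 young library, was added after the data were seen.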
